A study of Rattus norvegicus with 16 samples.

Results

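The genes described here code for proteins that coat lipid droplets or control fat release at the droplet surface: the perilipins Plin1 to Plin5, the CIDE proteins Cidea and Cidec, and G0s2. They were taken by symbol from a list of 8 genes. Plin1, Plin2, Plin5, Cidea, Cidec and G0s2 were measured and all 6 passed the filter for low counts, among 11658 genes tested of 17147 in the table. Plin3 and Plin4 were not analysed here.

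Messenger RNA was sequenced from the supraspinatus, a rotator cuff muscle of the shoulder, of Sprague Dawley rats in 16 libraries. The 4 groups of 4 libraries were unoperated muscle (0 days) and muscle taken 10, 30 or 60 days after a tear through the full thickness of the supraspinatus on both sides combined with suprascapular neurectomy, the cutting of the nerve that supplies the muscle. The control libraries came from unoperated rats, so the tear, the loss of nerve supply and the surgery itself were not separated. Ages and sexes were not given in the sources used here, and the labels do not say which libraries came from separate rats, so p-values measure the spread between these libraries, part of which may be technical. Libraries within a group are named by the numbers 1 to 4, which carry no order.

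A lipid droplet is a core of triacylglycerol and sterol esters inside a phospholipid layer, and its coat proteins decide how easily lipases reach the core. Plin2 coats droplets in almost every cell type and is degraded when it is not bound to lipid. Plin5 marks muscle, heart and other tissues that oxidise fat and ties droplets to mitochondria, whereas Plin1 and Cidec belong to the large droplets of white adipocytes, where Plin1 gates hormone-driven lipolysis and Cidec helps droplets fuse. Cidea acts like Cidec in brown adipocytes, and G0s2 binds and inhibits the lipase encoded by Pnpla2.

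The sequences just upstream of Plin1, Cidec and Plin2 are shown because the first pair changed together late after injury and Plin2 changed early. They are the 250 bases before the first listed start of each gene in RefSeq, build GRCr8, all on the minus strand: chr1:143086149-143086398 for Plin1, chr4:148137116-148137365 for Cidec and chr5:106229019-106229268 for Plin2, which has 2 listed starts. All 8 genes of the list had such a window. The fragment counts were made on another build, rn5, so these coordinates belong to the sequences alone. Capitals mark every match to the 7 motifs searched on both strands, so that a match on the other strand appears as its reverse complement.
Plin1: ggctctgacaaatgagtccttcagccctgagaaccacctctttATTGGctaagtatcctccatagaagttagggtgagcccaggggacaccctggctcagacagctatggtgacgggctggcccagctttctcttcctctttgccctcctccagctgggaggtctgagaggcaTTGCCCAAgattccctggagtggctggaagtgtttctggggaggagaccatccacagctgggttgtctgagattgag
Cidec: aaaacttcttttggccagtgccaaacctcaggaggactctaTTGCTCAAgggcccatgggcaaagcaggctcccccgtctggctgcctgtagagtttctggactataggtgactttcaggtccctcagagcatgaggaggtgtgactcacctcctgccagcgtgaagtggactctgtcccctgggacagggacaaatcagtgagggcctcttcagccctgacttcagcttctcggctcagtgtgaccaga
Plin2: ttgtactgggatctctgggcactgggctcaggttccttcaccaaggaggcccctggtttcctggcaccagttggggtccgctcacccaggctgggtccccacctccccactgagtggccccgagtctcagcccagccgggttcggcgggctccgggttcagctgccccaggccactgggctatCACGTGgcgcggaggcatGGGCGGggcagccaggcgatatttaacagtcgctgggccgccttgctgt
The Plin1 and Cidec windows each held 1 match to TTGCNNAA, the core of sites bound by C/EBP factors, which lay 69 and 201 bases before the start. No such match was found in the other 6 windows, and 9.2% of the 27457 RefSeq windows of the same length held at least 1. Plin1 also held CCAAT, present in 34.3% of windows. In Plin2 the matches were CACGTG, an E-box, and GGGCGG, a GC box, found in 5.79% and 32.4% of all windows. The site type bound by PPAR and RXR, 2 copies of AGGTCA with any 1 base between them, was in none of the 8 windows and in 0.0546% of all. The single hexamer AGGTCA was in 13.7% of all windows and, among the 8, in that of Plin5. TATAA was in 24.1% of all windows and in those of Plin5 and G0s2. A match is a description of letters and says nothing of binding.

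Each library held between 17.2 M and 39.9 M fragments (M, mega). Levels are given as CPM, fragments of a gene relative to library size after scaling by TMM factors, which ran from 0.750 to 1.24 and were lowest in the 4 unoperated libraries. Scaling by library totals in their place moved the median gene up by 0.66 (10 days), 0.49 (30 days) and 0.41 (60 days) on the log2 scale relative to 0 days, so each change below is relative to the bulk of the genes. It also raised the higher calls from 53.1% to 87.4% of all calls at 10 days, from 52.2% to 84.1% at 30 days and from 50.7% to 82.7% at 60 days. The members had between 21 fragments (Cidec, unoperated library 1) and 7432 (Plin2) in a library, against a floor of 3 fragments that corresponds to 0.0712 to 0.175 CPM. Gene lengths were not used, so levels are compared between groups and never between genes. The edgeR model with its Benjamini-Hochberg adjustment was fitted over all genes tested, and a gene is called changed at an adjusted p under 0.05. The members had been listed together with the expectation of an early Plin2 response and a late Plin1 and Cidec response, so that contrast is described and not counted as evidence.

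Plin2, the droplet coat of most cells, was the early gene. Its levels were 29.3, 36.4, 27.8 and 35.5 CPM in the unoperated libraries and 147, 244, 199.8 and 221 CPM at 10 days. They were 176, 134, 124 and 235 CPM at 30 days and 49.3, 39.8, 39.5 and 43.5 CPM at 60 days. Every library at 10 and 30 days lay above every library at 0 and 60 days, and the 60-day libraries lay just above the unoperated ones without overlap. Plin2 rose 6.29-fold at 10 days (log2 2.65 ± 0.20, SE, adjusted p 1.43e-08) and 5.19-fold at 30 days (2.38 ± 0.20, 5.95e-08). It then fell between 30 and 60 days (log2 -1.96 ± 0.19, adjusted p 8.21e-06). The levels at 10 and 30 days did not differ beyond their spread (-0.28 ± 0.18, 0.228), but without library 4 of the 30-day group that difference was -0.49 (adjusted p 0.0236). At 60 days the estimate was log2 0.42 ± 0.19 with an adjusted p of 0.0699, and it passed the threshold with library totals (0.82, adjusted p 0.00196), with upper-quartile factors (0.56, 0.0149), over genes of at least 1 CPM (0.46, 0.0414) and in the fit of these 2 groups alone (0.44, 0.00715).

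Cidea, known for brown adipocytes, was also high at 10 and 30 days and was called higher at all 3 times. In unoperated muscle it stood at 4.16, 2.53, 2.41 and 1.72 CPM, and at 10 days at 13.5, 9.86, 10.8 and 14.4 CPM. The 30-day libraries had 16.9, 10.1, 12.3 and 15.0 CPM and the 60-day libraries 8.62, 7.74, 7.25 and 7.87 CPM. No injured library overlapped with an unoperated one, and the 60-day libraries lay between the unoperated and the earlier injured ones. The rises were 4.53-fold at 10 days (log2 2.18 ± 0.22, SE, adjusted p 2.55e-07), 5.05-fold at 30 days (2.34 ± 0.22, 1.63e-07) and 2.94-fold at 60 days (1.56 ± 0.22, 2.12e-05). From 30 to 60 days Cidea fell by 0.78 on the log2 scale (SE 0.20, adjusted p 0.0109), and 10 and 30 days did not differ beyond their spread (0.16 ± 0.19, 0.522). Of the other listed brown fat genes, 3 were at or near 0. Ucp1, the heat-producing uncoupler, was at 0 in 12 of 16 libraries and never above 17 fragments, and the most in any library was 9 fragments for Dio2 and 5 for Zic1. Elovl3 had 9 to 42 fragments in a library. Cox8b, a subunit of the respiratory chain, was abundant, with group means of 700 CPM ± 81.9 (SD, n = 4) at 0 days and 272 ± 50.1 at 10 days, and it fell at 10 days alone of the 3 times (log2 -1.36).

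**Figure D1:**
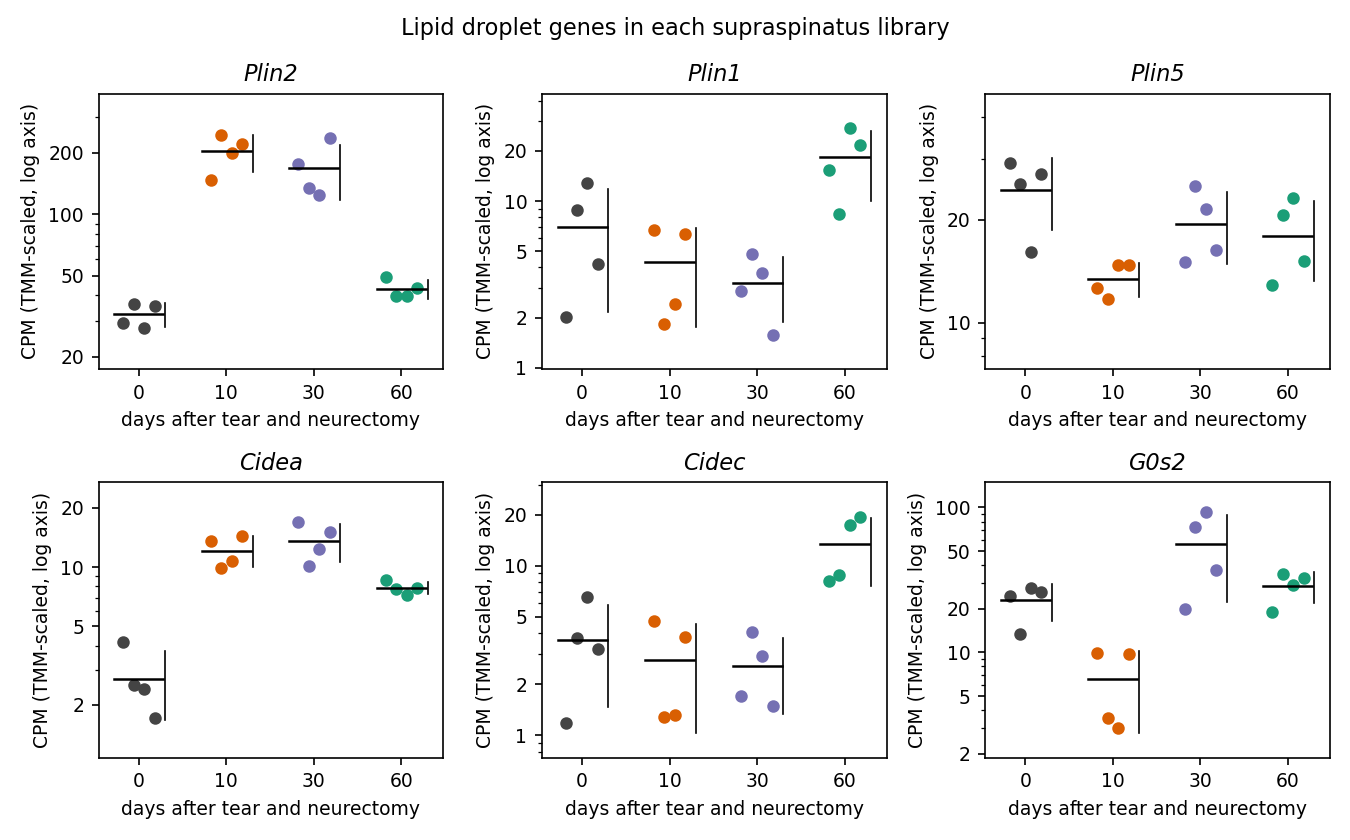
Levels of the 6 measured lipid droplet genes in each library, in TMM-scaled CPM on a log axis, against days after tear and neurectomy. Points are libraries in the order 1 to 4, horizontal lines group means and vertical lines ± 1 SD (n = 4). Plin2 and Cidea were high at 10 and 30 days, and Plin1 and Cidec were highest at 60 days.

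Plin1, the adipocyte perilipin, was the late gene and varied widely between libraries of one group. It measured 2.02, 8.80, 12.8 and 4.22 CPM in the unoperated libraries, 6.67, 1.84, 2.41 and 6.33 CPM at 10 days and 2.91, 4.80, 3.72 and 1.57 CPM at 30 days. At 60 days the values were 15.4, 8.41, 27.6 and 21.6 CPM. All 60-day libraries lay above all 10-day and 30-day libraries, but library 2 at 60 days lay below 2 unoperated libraries. Plin1 was higher at 60 than at 30 days by 5.53-fold (log2 2.47 ± 0.55, SE, adjusted p 0.00486) and than at 10 days by 4.21-fold (2.07 ± 0.53, 0.00329). Against unoperated muscle the 60-day rise was 2.59-fold (1.37 ± 0.52, adjusted p 0.0335). The decreases at 10 and 30 days were not called (log2 -0.70 and -1.09, adjusted p 0.267 and 0.0900), with 95% intervals of -1.83 to 0.43 and -2.25 to 0.07.

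The call of Plin1 at 60 days rested on few libraries. Of the 8 fits without 1 of the compared libraries, 5 did not call it: those without unoperated library 1 (log2 1.10, adjusted p 0.0837) or 4 (1.21, 0.0835), or 60-day library 1 (1.44, 0.0519), 3 (1.11, 0.104) or 4 (1.30, 0.0725). It was not called either with no filter for low counts (1.35, adjusted p 0.0627). At 30 days, the fit without unoperated library 1 called Plin1 lower (log2 -1.38, adjusted p 0.0330).

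Cidec, which promotes droplet fusion in white adipocytes, was also highest at 60 days. Its levels were 1.18, 3.74, 6.51 and 3.21 CPM at 0 days, 4.70, 1.28, 1.32 and 3.78 CPM at 10 days and 1.70, 4.08, 2.92 and 1.49 CPM at 30 days. At 60 days they were 8.07, 8.86, 17.2 and 19.4 CPM, above every other library. Cidec rose 3.62-fold against unoperated muscle (log2 1.85 ± 0.50, SE, adjusted p 0.00502), 5.16-fold against 30 days (2.37 ± 0.51, 0.00401) and 4.80-fold against 10 days (2.26 ± 0.50, 0.00110). These 3 calls were kept in every other fit run, leaving out single libraries included. The differences of 10 and 30 days from 0 days were not called (log2 -0.41 and -0.51, adjusted p 0.503 and 0.398), and the 10-day sign turned with library totals (0.25) and without unoperated library 3 (0.02).

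Within groups, Plin1 and Cidec varied with the adipocyte hormone Adipoq. Adipoq measured 3.54, 11.2, 19.6 and 11.1 CPM at 0 days, 11.9, 6.11, 4.45 and 10.1 CPM at 10 days, 10.3, 17.5, 13.9 and 8.002 CPM at 30 days and 33.4, 30.3, 66.5 and 59.6 CPM at 60 days. The 4 libraries of a group stood in the same order for Plin1 and Adipoq in 3 of 4 groups, for Plin1 and Cidec in 3 and for Cidec and Adipoq in 2. For Plin2 and Plin1 the order was the same in 0 of 4. Cidec itself spanned 16.5-fold over the 16 libraries, while the ratio of Cidec to Adipoq fragments spanned 2.40-fold, from 0.164 to 0.395. The ratio of Plin1 to Adipoq spanned 4.01-fold and was lower at 30 days (0.196 to 0.281) than at 0 days (0.381 to 0.787), without overlap. That of Cidec to Adipoq was likewise lower at 30 days (0.164 to 0.233) than at 0 days (0.29 to 0.334), without overlap. Fewer cells of a type and less RNA per cell cannot be told apart in bulk muscle. The coefficient of variation of Plin1 was 69.1% in the unoperated group against 13.4% for Plin2, and that of Cidec was 60.0%.

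**Figure D2:**
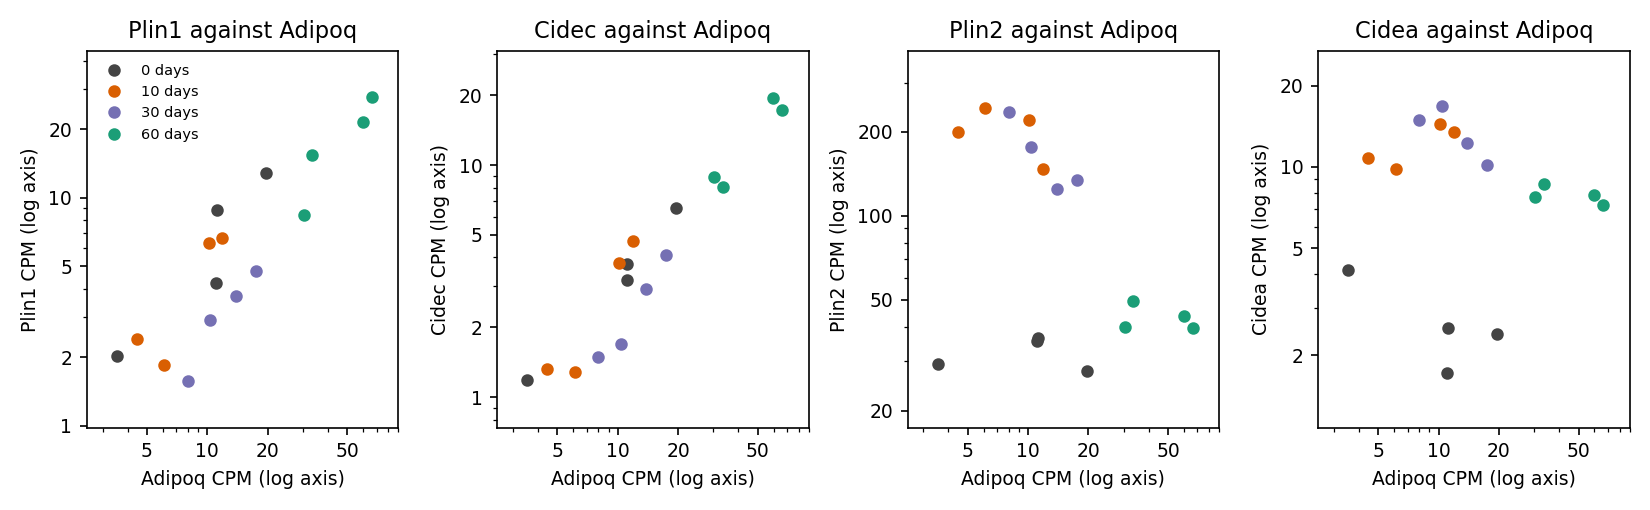
Plin1, Cidec, Plin2 and Cidea (y axes, TMM-scaled CPM, log scale) against Adipoq (x axes, same unit, log scale) in each of 16 libraries, coloured by days after injury. The library with the most Adipoq in a group also had the most Plin1, whereas Plin2 and Cidea separated the 10-day and 30-day libraries from the unoperated ones.

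Plin5, the perilipin of oxidative tissue, moved opposite to Plin2 at 10 days. Levels in unoperated muscle were 29.2, 25.3, 16.1 and 27.2 CPM, and at 10 days they were 12.6, 11.7, 14.7 and 14.7 CPM, with no overlap. It fell by 0.86 on the log2 scale (SE 0.21, adjusted p 0.00195), a call that was lost with library totals (-0.20, adjusted p 0.363). The 30-day libraries (15.1, 25.0, 21.5 and 16.3 CPM) and the 60-day libraries (12.9, 20.6, 23.1 and 15.2 CPM) overlapped with the unoperated ones. Neither time was called against 0 days (log2 -0.32 and -0.45, adjusted p 0.180 and 0.0757), and the 30-day sign turned with library totals (0.16). Without unoperated library 3, the lowest of its group, both became called lower (-0.47 and -0.59, adjusted p 0.0479 and 0.0209), and so did the 60-day value without 60-day library 3 (-0.60, 0.0310).

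Between 10 and 30 days Plin5 rose by log2 0.54 ± 0.21 (SE, adjusted p 0.0439). That call was lost in 6 of the 8 fits without 1 library, namely any of the 10-day libraries or 30-day library 2 or 3, with values of 0.39 to 0.58 and adjusted p of 0.0548 to 0.156. It was also lost with library totals (0.36), with the title letter as a covariate (0.45) and with no filter for low counts (0.52). Plin5 at 60 days did not differ beyond its spread from 30 days (-0.13, adjusted p 0.709) or 10 days (0.41, 0.102), although the latter was called without 60-day library 1 (0.54, 0.0369).

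G0s2, the inhibitor of the main droplet lipase, fell and then rose. It stood at 24.5, 13.3, 27.9 and 26.1 CPM at 0 days and at 9.84, 3.55, 3.00 and 9.74 CPM at 10 days, all below the unoperated libraries. At 30 days it stood at 19.9, 72.8, 93.7 and 37.0 CPM and at 60 days at 19.1, 34.5, 29.1 and 32.5 CPM. The 30-day group was the most spread of the 4, its highest library at 4.71 times its lowest. G0s2 fell 3.48-fold at 10 days (log2 -1.80 ± 0.47, SE, adjusted p 0.00332) and rose 8.50-fold from 10 to 30 days (3.09 ± 0.48, 8.71e-05). It was 2.44-fold above 0 days at 30 days (1.29 ± 0.44, 0.0185), a call lost without unoperated library 2 (1.10, adjusted p 0.0600) or 30-day library 3 (0.92, 0.0790) and in the fit of these 2 groups alone (1.28, 0.0517). At 60 days it was 4.38-fold above 10 days (2.13 ± 0.47, 0.00105) and did not differ beyond its spread from 0 days (0.33 ± 0.44, 0.538) or 30 days (-0.96 ± 0.44, 0.129). At 10 days, libraries 1 and 4 were the highest for G0s2 and also for Plin1, Cidec and Adipoq. This did not hold across times. The 4 libraries of a group stood in the same order for G0s2 and Plin1 in 0 of 4 groups. For G0s2 and Adipoq they did so in 1, the 10-day group.

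**Figure D3:**
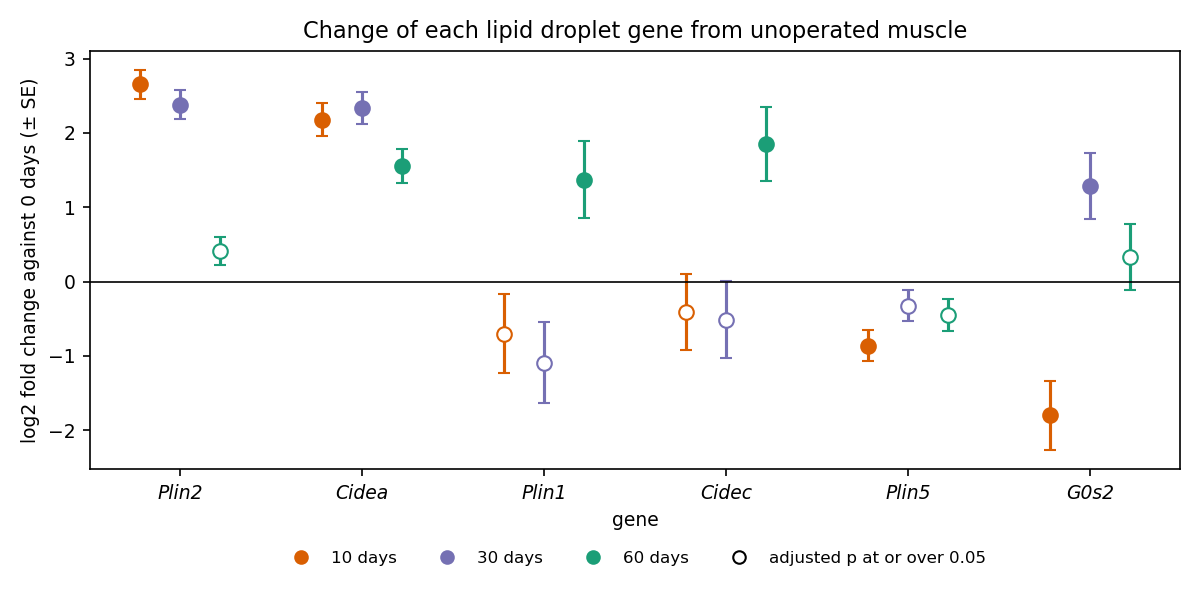
Log2 fold change of each measured lipid droplet gene from unoperated muscle at 10, 30 and 60 days (points, edgeR estimate; bars, ± SE; filled where the adjusted p was under 0.05). Plin2 was called higher at 10 and 30 days and Cidea at all 3 times, Plin1 and Cidec were called higher at 60 days alone among the 3 times, and Plin5 and G0s2 were lower at 10 days.

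Counted over the 6 measured members, 2 were higher and 2 lower at 10 days, where 62.7% of all genes tested were called (33.3% higher and 29.4% lower). At 30 days 3 members were higher and none lower, against 64.6% of all genes called (33.7% higher and 30.9% lower). At 60 days 3 were again higher and none lower, against 59.0% (29.9% and 29.1%). From 10 to 30 days 2 of 6 were called, both higher, against 47.3% of all genes (23.0% higher and 24.3% lower). From 30 to 60 days 4 were called, 2 in each direction, against 22.6% (10.3% and 12.4%). From 10 to 60 days 5 were called, 3 higher and 2 lower, against 61.1% (29.1% and 31.9%). The joint test over the 4 groups called all 6, and 84.7% of all genes. The comparisons with 0 days share the unoperated libraries. Groups without overlap were common: 59.0% of all genes for 10 against 0 days, 60.2% for 30 against 0, 50.0% for 60 against 0, 43.8% for 30 against 10, 20.1% for 60 against 30 and 51.2% for 60 against 10.

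Ratios within a library do not depend on scaling, and are given as a description. Plin1 fragments over Plin2 fragments were 0.0691 to 0.461 in unoperated muscle, 0.00754 to 0.0454 at 10 days, 0.00666 to 0.0358 at 30 days and 0.212 to 0.698 at 60 days. All 8 libraries at 10 and 30 days lay below all libraries of the other groups. The ratio of Cidec to Plin2 behaved the same way, at 0.0403 to 0.235, 0.00525 to 0.0320, 0.00632 to 0.0304 and 0.164 to 0.446. Over the 16 libraries the ratio of Plin1 to Plin2 spanned 104.8-fold, and that of Cidec to Plin1 2.48-fold (0.425 to 1.05). Cidea over Plin2 was 0.0404 to 0.142 in the groups up to 30 days and 0.175 to 0.195 at 60 days, where its SD was 0.00832 around a mean of 0.183 (n = 4). Plin2 over Plin5 was between 1.004 and 1.72 at 0 days, between 11.6 and 20.9 at 10 days and between 1.71 and 3.84 at 60 days. These ratios are not corrected for gene length, so their differences between groups can be read but not their absolute size.

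**Figure D4:**
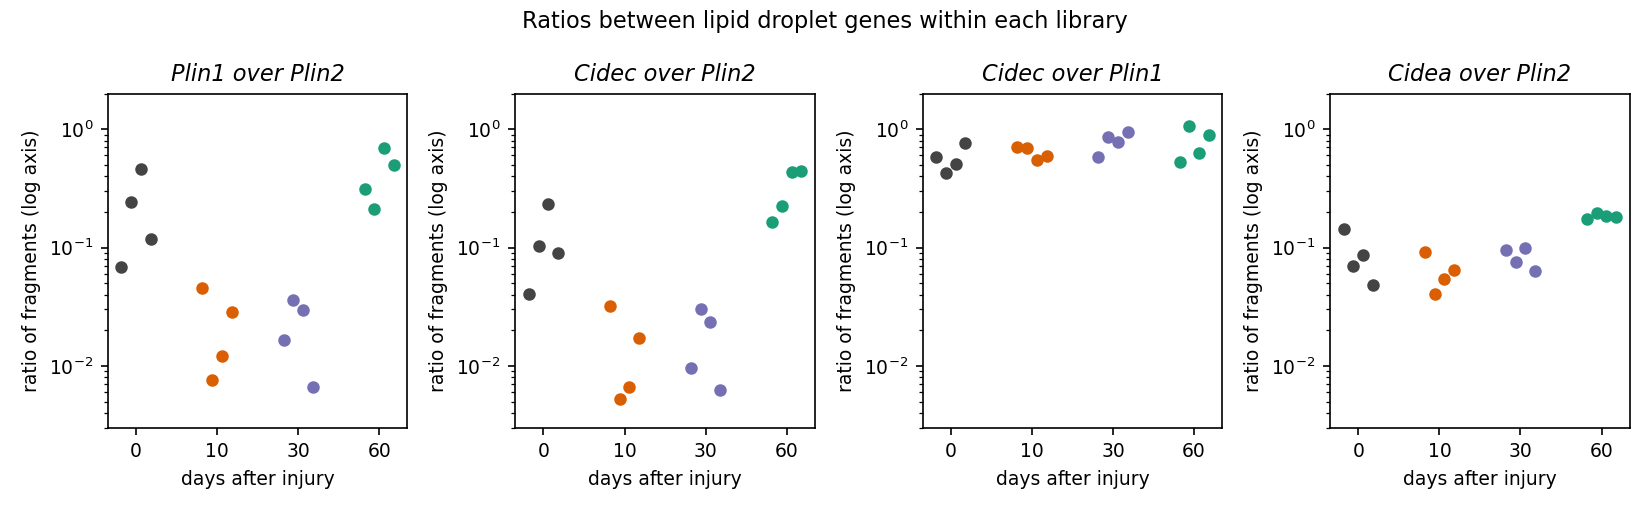
Ratios of fragment counts between lipid droplet genes within each library (log axis) against days after injury. Each point is a library. The ratios of Plin1 and Cidec to Plin2 dropped at 10 and 30 days and were high at 60 days, while Cidec over Plin1 stayed within 0.425 to 1.05.

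The genes whose patterns were most like those of Plin1, Cidec and Plin2 were sought among 10132 others. Likeness is the root mean square difference of log2 CPM over the 16 libraries, after each gene was centred on its own mean. It is a description, since all these genes share the libraries. Closest to Plin1 were Ankef1 (0.31), Cidec (0.35), the adipocyte hormone Lep (0.40), Pck1 (0.45), which makes glycerol phosphate for fat storage in adipocytes, and Cdo1 (0.53). Closest to Cidec were Ankef1 (0.30), Plin1 (0.35), Adipoq (0.35), Retn (0.39), another adipocyte hormone, and Cdo1 (0.40). Around Plin2 stood Akip1 (0.27), Ppfia4 (0.33), Acsl3 (0.33), Abhd2 (0.34) and Irx3 (0.35). Acsl3, which activates fatty acids on nascent droplets, averaged 27.2 CPM ± 1.51 (SD, n = 4), 145 ± 21.9, 94.4 ± 22.9 and 37.5 ± 5.93 in the 4 groups in order of time. By the same measure Cidea was the 243rd closest gene to Plin2 at 0.70, and Plin1 was the 9986th at 2.14.

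Few of the genes listed under lipolysis, which include droplet surface proteins such as Aup1 beside the lipases, were called higher. Of 12 listed lipolysis genes 9 could be tested, and Pnpla2, the lipase that G0s2 inhibits, had a listed value of 0 in every one of the 16 libraries. Such a value may come from the annotation or the counting, which was not checked. It is not read as lack of the RNA. At 10 days none of the 9 was called higher and 4 were lower, at 30 days 1 and 7, and at 60 days none and 6, with median log2 fold changes of -0.18, -0.99 and -0.63 against 0.06, 0.05 and 0.04 over all genes. The 10-day split turned with library totals, to 6 higher and 2 lower with a median of 0.48. With TMM factors, 33.3% of all genes tested were higher and 29.4% lower at 10 days. At 30 days the shares were 33.7% and 30.9%, and at 60 days 29.9% and 29.1%. The counts of this list and of those below stand against these shares. Lipe, the hormone-sensitive lipase that works on Plin1-coated droplets, averaged 49.4 CPM ± 6.88 (SD, n = 4), 20.4 ± 2.07, 23.4 ± 6.01 and 43.1 ± 7.29 in the 4 groups in order of time. It fell at 10 and 30 days (log2 -1.28 and -1.08, adjusted p 5.26e-06 and 3.32e-05) and was not called at 60 days (-0.20, 0.304). Abhd5, the activator of Pnpla2 that perilipins hold or release, was not called at 10 days (-0.04) and fell at 30 days (-1.05, adjusted p 1.96e-05) and 60 days (-1.09, 2.40e-05). Mgll, which finishes lipolysis, likewise fell at 30 and 60 days (-0.99 and -0.98). Pnpla3 was lower at all 3 times (-2.81, -1.80 and -1.18), and Pnpla7 at 30 and 60 days (-1.02 and -0.97). Aup1, a droplet surface protein, was lower at all 3 times (-0.50, -0.69 and -0.41), but its 10-day sign turned with library totals (0.16).

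Genes of droplet formation and triacylglycerol synthesis split. Of 19 tested, 6 were higher and 12 lower at 10 days, 5 and 11 at 30 days and 5 and 11 at 60 days, with medians of log2 -0.52, -0.50 and -0.50. With library totals these were 8 and 6, 8 and 8, and 7 and 5, so the prevailing direction depends on the scaling. The 6 higher at 10 days with TMM factors were near the 33.3% of all genes that were higher then. Acsl3 rose at all 3 times (log2 2.42, 1.79 and 0.46, adjusted p 3.37e-09, 8.23e-08 and 0.0170), as did Acsl4, another acyl-CoA synthetase (2.75, 1.70 and 1.03). Lpin1, which makes the diacylglycerol precursor of stored fat and is also a transcriptional coactivator, fell at all 3 (-2.10, -2.81 and -2.77). Fitm1, a muscle protein that partitions fat into droplets, fell too (-1.04, -0.39 and -0.51), but its 30-day sign turned with library totals (0.10).

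Among other proteins of the droplet surface and its traffic, 17 genes were tested. There were 3 higher and 10 lower at 10 days, 4 and 11 at 30 days, and 2 and 10 at 60 days, and with library totals 10 and 4, 6 and 4, and 5 and 3. Lss, a sterol synthesis enzyme found on droplets, rose at 10 and 30 days (log2 2.23 and 1.00). Cd36, a fatty acid carrier, fell at all 3 times (-1.44, -1.10 and -0.60). Vps4a (-0.41, -0.74 and -0.76) and Rab7a (-0.64, -0.55 and -0.37), which act in membrane traffic, were lower too, with signs that turned under library totals at 10 days for both (0.25 and 0.02) and at 60 days for Rab7a (0.04).

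Transcription factors that control droplet genes, counted with PPAR targets, gave 2 higher and 11 lower of 20 at 10 days, 2 and 10 at 30 days and 2 and 9 at 60 days. With library totals the splits were 8 and 6, 8 and 4, and 5 and 5. Ppard, the PPAR common in muscle, fell at all times (log2 -0.99, -1.27 and -1.23), and its partner Rxra fell too (-0.95, -2.74 and -2.39). Pparg, the factor that drives adipocyte formation, averaged 4.39 CPM ± 0.524 (SD, n = 4), 2.31 ± 0.430, 2.84 ± 0.626 and 5.63 ± 1.62 in the 4 groups in order of time and was higher at 60 than at 10 days (log2 1.28, adjusted p 8.02e-05). The C/EBP genes differed among themselves. Cebpa was higher at all 3 times (1.02, 1.27 and 1.91, adjusted p 0.00519, 0.00109 and 3.91e-05). Cebpb was not called at any of the 3 times (0.52, 0.22 and 0.22). Cebpd fell at all 3 (-1.96, -1.62 and -0.74), and Nr1h3, a sterol-sensing receptor, at 30 and 60 days (-0.36 and -0.68), with a 30-day value of 0.14 under library totals.

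Genes that define muscle fibres, the labelled tissue, were abundant in every library, with a summed level of 265850 to 292950 CPM at 0 days and 75806 to 174650 CPM after injury. Of 11 tested, 1 was higher and 10 lower at 10 days, 1 and 9 at 30 days, and 2 and 7 at 60 days. With library totals these were 2 and 9, 1 and 6, and 2 and 4. Mb, which encodes myoglobin, was higher at each time (log2 0.50, 1.01 and 0.49), and Myh2, a fast myosin, at 60 days (0.63). Atp2a1, Acta1, Myh1 and Ckm were each called lower throughout, with 10-day log2 values between -3.01 and -2.59. Most of the white adipocyte genes tested were higher at 60 than at 10 days, as were Plin1 and Cidec. Of 14, 12 were higher and 1 lower at 60 than at 10 days (10 and 1 when scaled by totals), against 29.1% and 31.9% of all genes. Against 0 days 6 were higher and 1 lower (9 and 1 by totals), with a median of log2 1.19. Adipoq was 2.05 ± 0.42 (SE, adjusted p 0.00073), Retn 2.03, Lep 1.92 and Tusc5 1.29 above 0 days on that scale, and Fabp4 was not called (0.33). The list was not uniform, with 2 higher and 5 lower at 10 days (2 and 3 by totals) and 1 and 5 at 30 days (2 and 3), when neither Plin1 nor Cidec was called. Aqp7, a glycerol channel, was lower at each time (-2.63, -1.70 and -1.63), and Thrsp, a gene of fat synthesis, was higher at 10 days alone (1.73). The summed level of the 15 markers overlapped between groups (774 to 992 CPM at 0 days and 708 to 1020 CPM at 60 days), but Lpl and Fabp4, which vessels and fibres also express, made up 70.1% to 87.1% of it. Without them the sum was 112 to 164.7 CPM in unoperated muscle, 93.5 to 194.6 at 10 days, 86.9 to 159.6 at 30 days and 165.3 to 297 at 60 days. Thrsp alone gave 37.1 to 117 CPM of this sum at 10 days, against 15.5 to 27.3 CPM at 60 days.

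Markers of other cells moved as well. The 12 macrophage genes summed to 47.2 to 65.9 CPM at 0 days, 353 to 461 at 10 days, 208 to 277 at 30 days and 166 to 318 at 60 days. Without Gpnmb the other 11 summed to 41.5 to 59.6 CPM, 128 to 171, 165 to 205 and 139 to 262 in the same order, so the 10-day peak of the sum rested on that gene. Gpnmb, listed here with the macrophage genes, rose by log2 5.32, 3.08 and 2.37, and Mrc1, Aif1 and Csf1r rose at all 3 times by 1.39 to 2.26. The cells that held the Gpnmb RNA were not identified. Progenitor genes of the fibro-adipogenic type summed to 329 to 502 CPM at 0 days, 422 to 584 at 10 days, 805 to 948 at 30 days and 876 to 1632 at 60 days. Cd34 was listed at 0 in all 16 libraries, which, as for Pnpla2, is not read as lack of the RNA. Pi16, Pdgfra, Dpt and Dcn were each higher at 60 days (1.84, 1.62, 1.76 and 1.48), whereas Osr1 was lower (-0.48), a call lost with library totals (-0.07). Of 8 tested, 6 were higher and 1 lower at 30 days, and 7 and 1 at 60 days. Schwann cell genes summed to 84.2 to 129.9 CPM at 0 days, 45.7 to 77.7 at 10 days and 162 to 334 at 60 days, and Pmp22 and Mbp were each higher at 60 days (1.34 and 1.57). Endothelial genes summed to 380 to 439, 205 to 298 and 332 to 504 CPM at those times, and Flt1, Kdr, Tek and Emcn were each lower at 10 days (-1.44, -1.30, -0.59 and -0.58). The Tek and Emcn signs turned with library totals (0.07 and 0.08). At 60 days libraries 3 and 4, the highest for Plin1 and Cidec, had Schwann sums of 334 and 301 CPM against 162 and 194 in libraries 1 and 2. This order was not particular to Schwann genes. Libraries 3 and 4 were also the highest for the progenitor sum (1155 and 1632 against 897 and 876 CPM). The same held for the macrophage sum (197 and 318 against 166 and 166 CPM) and the white adipocyte sum (1020 and 904 against 708 and 898 CPM). It did not hold for the endothelial, brown adipocyte or muscle fibre sums. The part of these cell types in the changes of the droplet genes was not tested.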

How the data were processed

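Messenger RNA of 16 rat supraspinatus libraries was analysed from 1 table of fragments per gene. The authors deposited expected counts, that is raw fragments per gene and library, not scaled for depth or length; 233 genes have a fractional value, none of them a member. Per the submitters' processing notes the tools were bcl2fastq 1.8.4, FastQC, TopHat2 2.0.9, Bowtie2 2.1.0.0, Cufflinks and Cuffdiff 2.1.1 on build rn5; annotation, strandedness and filters are not given in the sources used here, so reads of overlapping genes may be shared. Per the labels' protocols, a miRNeasy kit gave the RNA and a TruSeq mRNA kit the libraries.

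Counts were rounded, filtered with filterByExpr, scaled by TMM and fitted over all 16 libraries with the edgeR quasi-likelihood test (robust, no covariate). P-values were adjusted by Benjamini-Hochberg over all genes tested, and an SE is the log2 fold change divided by the square root of F. Intervals are 95%. Ratios use raw fragments, and floors cover counting error only. On simulated data for 10 against 0 days (11547 genes tested), the fit found 159 of 200 genes with a true 2-fold change and 11 genes with none. All other simulated means were equal between groups, whereas 62.7% of genes were called in the measured comparison. The simulation therefore does not test the scaling.

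The 6 comparisons were each refitted with RLE, upper-quartile and library-total scaling, DESeq2, limma-voom, other filters, the compared groups alone, a replicate block, the title letter (L or R, meaning not stated) and without each library. Members and gene lists were chosen with earlier results of these data known. Named are the 8 members, any gene of the lipolysis and white adipocyte lists, up to 4 genes of each other list with the smallest joint-test p among those of at least 5 CPM on average, and the 5 genes most like Plin1, Plin2 and Cidec among those of at least 1 CPM. Some genes that this rule names are not reported here. Elovl3, Mb, Myh2, Osr1, Cebpb, Cd34, Ucp1, Dio2, Zic1, Lpin2 and Lpin3 fall outside it and were chosen after their values were seen. Fits used edgeR 4.0.16, DESeq2 1.42.0 and limma 3.58.1 under R 4.3.3, and plots matplotlib 3.10.9 under python 3.11.15.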

Additional observations from a re-analysis of the deposited data

Results flagged for a closer look

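The change from unoperated muscle differed between times after injury for every measured member, by the edgeR test of the later against the earlier time. Between 30 and 60 days the log2 difference was 2.47 for Plin1, 2.37 for Cidec, -1.96 for Plin2 and -0.78 for Cidea. Between 10 and 60 days it was 2.07 for Plin1, 2.26 for Cidec, 2.13 for G0s2, -2.24 for Plin2 and -0.62 for Cidea. Between 10 and 30 days it was 3.09 for G0s2 and 0.54 for Plin5, the latter lost in 6 of 8 fits without 1 library (0.39 to 0.58 in those). From 30 to 60 days Plin1 and Cidec went up where Plin2 and Cidea went down. In 24 groups of 4 libraries, 1 for each member and time, no library stood apart from the other 3 by Dixon's criterion, which has little reach with 4 values.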

How the results depend on the processing

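All 36 member values (6 members in 6 comparisons) kept their sign and their side of the threshold with RLE factors and DESeq2. Of 36, 34 to 35 did so with limma-voom, upper-quartile factors, either other filter, the compared groups alone and the title letter, 33 with the replicate block and 31 with library totals. The number of members changed from 10 to 30 days was 2, and it was 1 with library totals, with no filter for low counts, with the replicate block and with the title letter, the call lost each time being Plin5. Leaving out 1 library gave 1 to 3 for that comparison, 4 for 10 against 0 days, 2 to 4 for 30 against 0 days, 2 to 4 for 60 against 0 days, 4 for 60 against 30 days and 5 to 6 for 60 against 10 days. Signs turned for uncalled values alone: with library totals for Cidec at 10 days (0.25) and Plin5 at 30 days (0.16), with limma-voom for Cidec from 10 to 30 days (0.042), and without 1 library for Cidec at 10 days (-0.79 to 0.015), Cidec from 10 to 30 days (-0.46 to 0.28) and Plin5 from 30 to 60 days (-0.27 to 0.021). The column suffix did not pair libraries: the 24 same-suffix pairs of different groups correlated at 0.00129 on average (-0.237 to 0.216) after group means were removed, and 3 of 16 libraries matched their own suffix best. With that block the Plin1 call at 60 days (adjusted p 0.0534) and the Plin5 call between 10 and 30 days (0.52, adjusted p 0.0695) were lost, and Plin2 at 60 days was called (0.43, adjusted p 0.04996). The 60-day libraries were the 4 smallest, so depth and that group cannot be told apart.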

Other observations

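The search for genes of like pattern was extended, after the values had been seen, to the members outside its rule. Nearest to Plin5 over the 16 libraries were Hsdl2 (root mean square difference 0.20 log2 units), Eci1 (0.20), Foxp3 (0.20), Slc25a20 (0.21) and Hadha (0.21). Eci1, Slc25a20 and Hadha act in mitochondrial fatty acid oxidation. Plin5 spanned only 2.5-fold over the 16 libraries, and by this measure genes that vary little lie near such a gene. A shared control of these genes was not tested. Slc25a20, the carnitine carrier, averaged 186 CPM ± 18.5 (SD, n = 4), 117 ± 5.83, 166 ± 34.1 and 183 ± 34.0 in the 4 groups in order of time.

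Cidea was nearest to Fbxo30 (0.28), Pcgf2 (0.30), Copz2 (0.31), Tmem9 (0.31) and Eci3 (0.32). The cells that held the Cidea RNA were not identified. Fbxo30, a ubiquitin ligase of muscle atrophy, averaged 25.5 CPM ± 1.53, 126 ± 7.66, 119.6 ± 28.1 and 62.4 ± 12.1 at the 4 times. Around G0s2 no gene lay closer than 0.57 (Adam11), and Adam11 averaged 13.3 CPM ± 1.30, 1.87 ± 0.679, 26.3 ± 10.1 and 16.9 ± 2.21.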
